A study of Mus musculus with 12 samples.

Results

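Complement and coagulation are cascades of plasma proteases, and the liver secretes most of their soluble components. Described here are 36 such genes, of 26031 gene identifiers with counts, in mouse liver RNA. They were taken by gene symbol, with earlier results of these data known. They fall into 8 roles from the initiating lectins and proteases of complement to the fibrinogen chains and plasminogen. The livers came from C57BL/6N mice, with 4 groups and 3 libraries in each. The chow group (replicates 8, 17 and 19) ate regular chow and was not injected. The high-fat diet group (replicates 4, 30 and 38) ate that diet and was not injected either. The vehicle group (replicates 15, 23 and 55) ate the high-fat diet and received 30% DMSO in corn oil. The PCN group (replicates 5, 11 and 27) ate the high-fat diet and received 50 mg/kg pregnenolone 16α-carbonitrile, a ligand of the pregnane X receptor in rodents. The diets began at 6 weeks of age and ran for 15 weeks, and the intraperitoneal injections were given daily for 4 days. The labels do not state that each replicate is another animal, so the tests measure the spread between these libraries.

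Complement starts from antibody-bound C1, from lectins that bind microbial sugars, or from C3 itself. Each route assembles a convertase that cleaves C3, and the terminal components C5 to C9 then build a pore in the target membrane. Coagulation runs through vitamin K-dependent proteases to thrombin, which turns fibrinogen into fibrin, while protein C, protein S and plasmin limit or dissolve the clot. Hepatocytes make most of these proteins, and several of them are known as acute phase proteins, whose plasma levels move in inflammation.

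The 36 genes could be followed in all 6 libraries of the uninjected high-fat diet and vehicle groups, whose deposited table was complete. Counts of the other groups were at hand only for genes that the authors called in a comparison with that group. Chow counts existed for 19 of the 36 genes and PCN counts for 13, and these 13 had counts in all 4 groups. Library totals were 7466378 to 38161486 counts in the high-fat diet group, where replicate 38 was the shallowest, and 19773547 to 22039805 in the vehicle group. Only size factors were known for the rest, 0.7695 to 1.134 for chow and 0.5816 to 1.7948 for PCN. The smallest count of any of the 36 genes in the 6 complete libraries was 63, for Cfb in high-fat diet replicate 38. Markers of hepatocytes, 8 genes, summed to 1113450 to 1922833 normalized counts in each of these libraries, against 4936 to 11550 for 9 macrophage markers and 54.9 to 130.9 for 6 platelet markers.

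Values below are normalized read counts, that is counts divided by size factors, in the order of the replicate numbers given above. Group values are means ± SD with n = 3, and a fold is a ratio of group means. A gene is said to have risen or fallen where the authors' deposited DESeq2 adjusted p was under 0.05. Alongside stands edgeR's quasi-likelihood test, which was the main test for the complete table.

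Levels per kilobase of exon differed by orders of magnitude between the genes. In the uninjected high-fat diet group the fibrinogen chain Fga had the highest level of the 36, 27476 ± 7539 normalized counts per kilobase. The other chains were close to it, at 24862 ± 6366 for Fgg and 18604 ± 4502 for Fgb, as was C3 at 24683 ± 6306. Vtn, the adhesive plasma protein vitronectin, followed at 13819.7 ± 2527 and Kng1, kininogen, at 8466 ± 866. The lowest levels per kilobase were those of the convertase proteases C2, 75.6 ± 5.6, and Cfb, 64.4 ± 12. Both share exonic bases with another gene on the same strand, so their levels and their place in this order are uncertain. The SDs of neighbours in this order often overlapped, as for Fga, Fgg and C3. In all, 33 of the 36 genes had a mean of at least 1000 normalized counts per gene, so the 2668 genes at or above that mean serve as a second background.

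In the livers of vehicle-injected mice 34 of the 36 genes had a higher mean than in uninjected mice on the same diet. The authors' deposited table called 8 of them higher and none lower, against 0.281% and 0.511% of all genes tested and 1.54% in each direction among genes with a mean of at least 1000. The 8 were Fgl1, C8a, C3, Vtn, Hc, F7, Kng1 and C4b, with ratios of group means between 1.73 and 5.06. They came from 6 of the 8 roles, and none of the initiating proteases and lectins or of the anticoagulant and fibrinolytic genes was among them. The role of cofactor and fibrin formation counted through Fgl1 alone, which is not a clotting factor. By edgeR with adjustment over 13775 genes none of the 36 passed an adjusted p of 0.05, and 1 gene in all did, which is 0.00726% higher and 0% lower. At an unadjusted p under 0.05, edgeR gave 17 of the 36 genes as higher and none as lower, against 5.79% and 6.74% of all genes tested. A DESeq2 refit called 10 of the 36 higher and none lower at an adjusted p under 0.05, against 0.679% and 1.32% of the genes it tested, and edgeR without an expression filter called 6 higher and none lower, against 0.373% and 0.715%.

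The median log2 ratio of the 36 genes was 0.50, against 0.03 for the 2668 genes with a mean of at least 1000, of which 55.5% lay above 0. For 21 genes, 58.3%, every vehicle library was above every uninjected library, and for none was every vehicle library below; the shares were 11.6% and 9.63% for the genes with a mean of at least 1000. Scaling by library totals moved the median of the latter by -0.14, and the difference between the genes described here and that median was 0.47 with size factors and 0.48 with totals. The direction of C1s1 and F13b turned with that scaling, and the direction of all others was kept. In bulk RNA, more RNA per hepatocyte and a larger share of hepatocytes in the piece of liver cannot be told apart. Of the 8 hepatocyte markers 5 had a higher mean with vehicle, their median log2 ratio was 0.20, and none was called in the authors' deposited table. Their summed level had a median of 1737836 without injection (1422494 to 1922833) and 1790042 with vehicle (1113450 to 1814068).

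High-fat diet replicate 38 stood apart. It had the lowest value of the 6 libraries for 32 of the 36 genes, against 45.4% of the genes with a mean of at least 1000. Vehicle replicate 15 had the highest value for 20 genes and vehicle replicate 55 for 10. Within the vehicle group, replicate 23 was the lowest for 22 genes. The 36 genes together took 2.82% to 3.66% of the counts of the uninjected libraries and 4.71% to 6.89% of those of the vehicle libraries. Without high-fat diet replicate 38, the median log2 ratio was 0.39, 32 genes lay above 0, and the DESeq2 refit called 7 of the 36 genes higher and none lower, against 0.486% and 0.761% of the genes it tested.

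**Figure D1:**
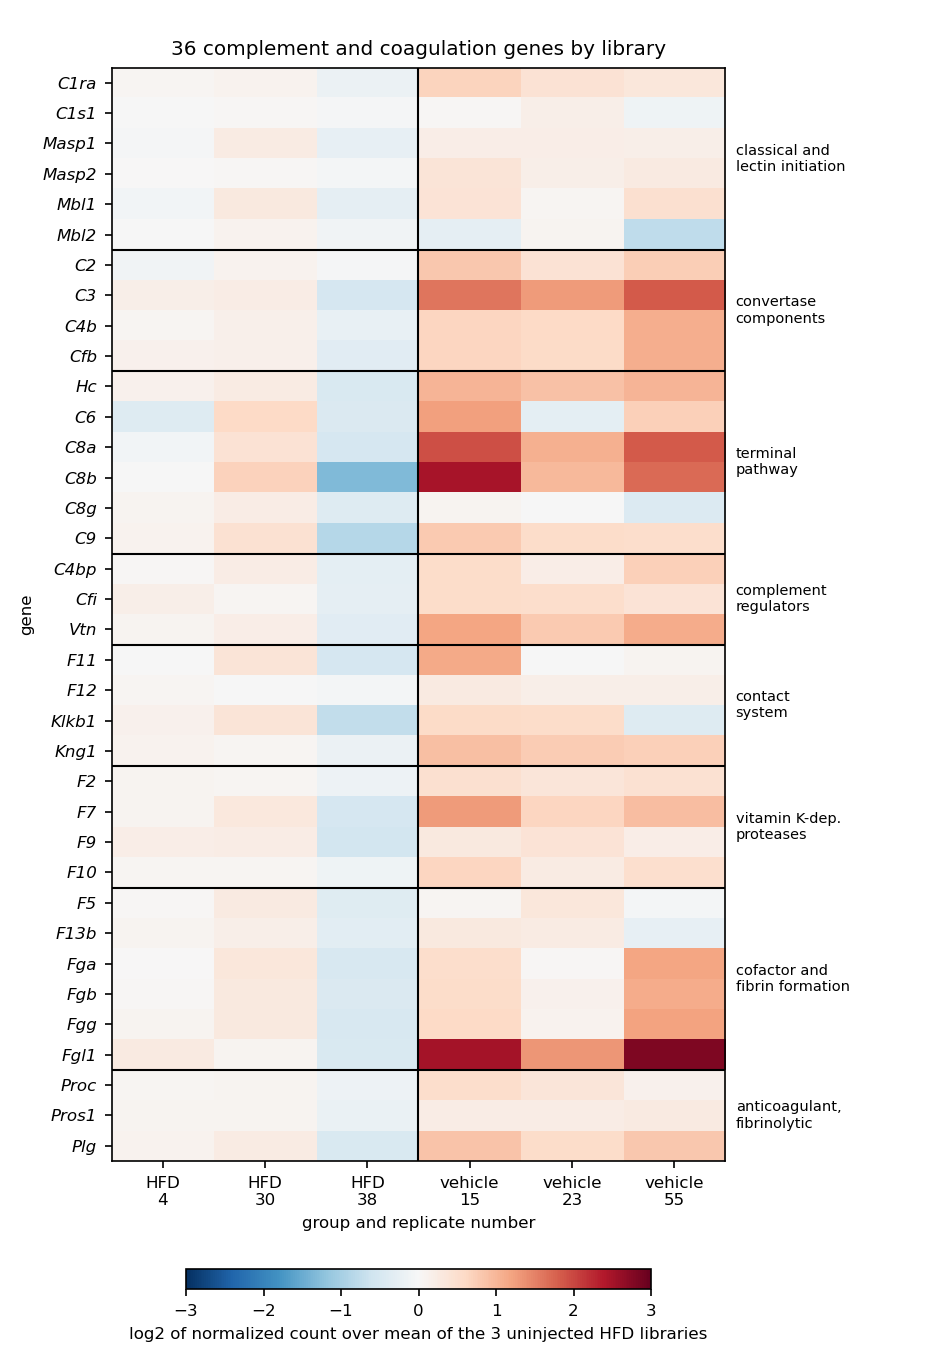
Heat map of the 36 genes (vertical axis, by role) in the 3 uninjected high-fat diet and 3 vehicle libraries (horizontal axis, by replicate number); colour is the log2 of the normalized count over the mean of the uninjected libraries. The vehicle columns are mostly red, most strongly Fgl1 and C8b, and high-fat diet replicate 38 is blue for most genes, while Mbl2 and C8g have a lower mean with vehicle.

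None of the initiation genes was called between these groups. C1ra and C1s1 encode the proteases of the C1 complex and lie next to each other on chromosome 6, 6901 bases apart. C1ra had 1988, 2057 and 1674 in the uninjected libraries and 3048, 2578 and 2403 with vehicle, a ratio of 1.40 that neither test called. Its groups did not overlap, whereas C1s1 had nearly equal means, 8372 ± 162 and 8551 ± 926. Masp1 and Masp2, the proteases that ride on mannose-binding lectins, had ratios of 1.14 and 1.22. The lectins themselves differed in direction. Mbl1 had a ratio of 1.25, and Mbl2 had 5082, 5508 and 4726 without injection and 4229, 5378 and 3001 with vehicle. Mbl2 was lowest in vehicle replicate 55 and its groups overlapped; its edgeR log2 difference was -0.28 ± 0.21 (SE), adjusted p = 0.581. Of the exonic bases of Masp2, 54.9% overlap Tardbp on the opposite strand, and the labels do not say whether the counts were stranded, so its level is uncertain.

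The convertase components were higher with vehicle in all 4 cases, with no overlap between the groups. C3, the protein at which all complement routes meet, had 143985, 147303 and 89547 normalized counts without injection and 384943, 307154 and 454011 with vehicle. The lowest vehicle library, replicate 23, was above the highest uninjected one. The ratio was 3.01, and the adjusted p was 1.32e-07 from DESeq2 in the authors' deposited table and 0.16 by edgeR. C4b, which encodes complement C4, had 38084, 40786 and 31307 without injection and 57130.0, 55819 and 77817 with vehicle. Replicate 55 was the highest vehicle library for both genes, and the authors' deposited DESeq2 table gave C4b an adjusted p of 0.0132 against 0.253 by edgeR. C4b has a close copy, C4a, between which reads could be split.

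C2 and Cfb, the protease subunits of the classical and alternative convertases, were not called. C2 had 274, 317 and 288 without injection and 512, 394 and 490.5 with vehicle, a ratio of 1.59. All vehicle libraries lay above the uninjected ones, and the adjusted p was 0.0643 in the authors' deposited DESeq2 table and 0.182 by edgeR. Cfb had 199.9, 203 and 143 without injection and 283, 272 and 387 with vehicle, again without overlap, a ratio of 1.73. The genes lie 85 bases apart on chromosome 17, and 46.9% of the exonic bases of C2 and 79.5% of those of Cfb also belong to Gm20547 on the same strand. Gm20547 is not listed in the complete table, and how the shared reads were counted is not known here, so the levels of both genes are uncertain.

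Among terminal components, Hc and C8a rose in the authors' deposited table. Hc encodes complement C5, whose cleavage starts the membrane pore, and had 20495, 22302 and 13777 without injection and 38217, 34739 and 38182 with vehicle. The vehicle libraries lay close together, and all were above the uninjected ones. The ratio was 1.96, with adjusted p = 0.00112 in the authors' deposited DESeq2 table and 0.184 by edgeR. C8a encodes the alpha chain of C8 (ENSMUSG00000035031, chr4:104815679-104876398 in GRCm38) and had 6126, 8842 and 4562 without injection and 25034, 13614 and 23169.6 with vehicle. Vehicle replicate 23 was the lowest of its group and still above all uninjected libraries. The ratio of C8a was 3.17, adjusted p = 2.16e-05 in the authors' deposited DESeq2 table and 0.16 by edgeR.

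C8b encodes the beta chain and lies 11130 bases from C8a. It had 1132, 1830.1 and 456 without injection and 6304, 2243 and 3686 with vehicle, a ratio of 3.58 that exceeded that of C8a. The libraries of both groups differed from each other several times over, and C8b was not called, with adjusted p = 0.287 in the authors' deposited DESeq2 table and 0.257 by edgeR. C8g, the gamma chain, did not share the direction: it had 5038, 5500.2 and 3639 without injection and 5025, 4720.1 and 3576 with vehicle, with overlapping groups, an edgeR log2 difference of -0.09 ± 0.19 (SE) and an adjusted p of 0.864. C6 and C9, other parts of the pore, had ratios of 1.60 and 1.55, and neither was called.

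Among the regulators that bind or cleave complement fragments, vitronectin rose in the authors' deposited table. Vtn had 29925, 31986 and 22251 without injection and 63207, 48194 and 61076 with vehicle. All vehicle libraries, of which replicate 23 was the lowest, were above the uninjected ones. The ratio was 2.05, adjusted p = 0.000179 in the authors' deposited DESeq2 table and 0.169 by edgeR. Cfi, the protease that inactivates C3b and C4b, and C4bp, its cofactor, had ratios of 1.41 and 1.42 and were not called. The groups overlapped for C4bp, and for Cfi they did not.

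In the contact system, which starts clotting at surfaces and releases bradykinin, Kng1 rose in the authors' deposited table. Kng1, the precursor of bradykinin, had 29594, 28639 and 24311 without injection and 51820.5, 47019 and 44831 with vehicle. Its vehicle libraries were tight and all above the uninjected ones. The ratio was 1.74, adjusted p = 0.000144 in the authors' deposited DESeq2 table and 0.184 by edgeR. Its close copy Kng2 was called higher as well, with a ratio of 1.57 and adjusted p = 0.00412 in the authors' deposited DESeq2 table, and reads could be split between the copies. The protease genes were not called: Klkb1, plasma prekallikrein, had a ratio of 1.23, F11 1.41 and F12 1.15. F11 was at 1329 in vehicle replicate 15 and at 598 and 646 in the other vehicle libraries, within the uninjected range.

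Of the vitamin K-dependent proteases F7 rose in the authors' deposited table. F7, factor VII, which starts clotting together with tissue factor, had 837, 979 and 556 without injection and 1923, 1242 and 1493 with vehicle. All vehicle libraries were above the uninjected ones. The ratio was 1.96, adjusted p = 0.026 in the authors' deposited DESeq2 table and 0.215 by edgeR. Its neighbour F10, 1498 bases away on chromosome 8, had a ratio of 1.39. Prothrombin, F2, had 1.36 and factor IX, F9, had 1.23, and none of these was called.

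The largest ratio of the 36 was that of Fgl1, a fibrinogen-like protein that hepatocytes secrete and that is not a clotting factor (ENSMUSG00000031594, chr8:41191434-41215156). It had 6082, 5329 and 3671 normalized counts without injection and 28524, 12503 and 35263 with vehicle. Replicate 23 was again the lowest vehicle library and lay above all uninjected ones. The ratio was 5.06, with adjusted p = 3e-08 in the authors' deposited DESeq2 table, and by edgeR the log2 difference was 2.34 ± 0.39 (SE) with an adjusted p of 0.141. The fit by edgeR without vehicle replicate 23 called 1 of the 36 genes higher and none lower, against 0.0416% and 0.0208% of the genes it tested.

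The fibrinogen chains kept a nearly fixed proportion to each other while their level changed between libraries. Fga had 83377, 105052 and 59683 without injection and 120026, 85184 and 189145 with vehicle. Fgb had 73179, 86770.1 and 52698 without injection and 104219, 77238 and 152811 with vehicle, and Fgg had 55441, 63327 and 37342 without injection and 79023, 55589 and 121043 with vehicle. For each chain vehicle replicate 55 was the highest library and high-fat diet replicate 38 the lowest, and vehicle replicate 23 lay within the uninjected range. The ratios of group means were 1.59, 1.57 and 1.64, the groups overlapped, and by edgeR the adjusted p was 0.467, 0.432 and 0.427. Per kilobase, Fga to Fgg was 1.046 to 1.153 and Fgb to Fgg 0.694 to 0.775 over the 6 libraries. F5, the cofactor of factor X, and F13b, the carrier subunit of factor XIII, had ratios of 1.09 and 1.09.

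**Figure D2:**
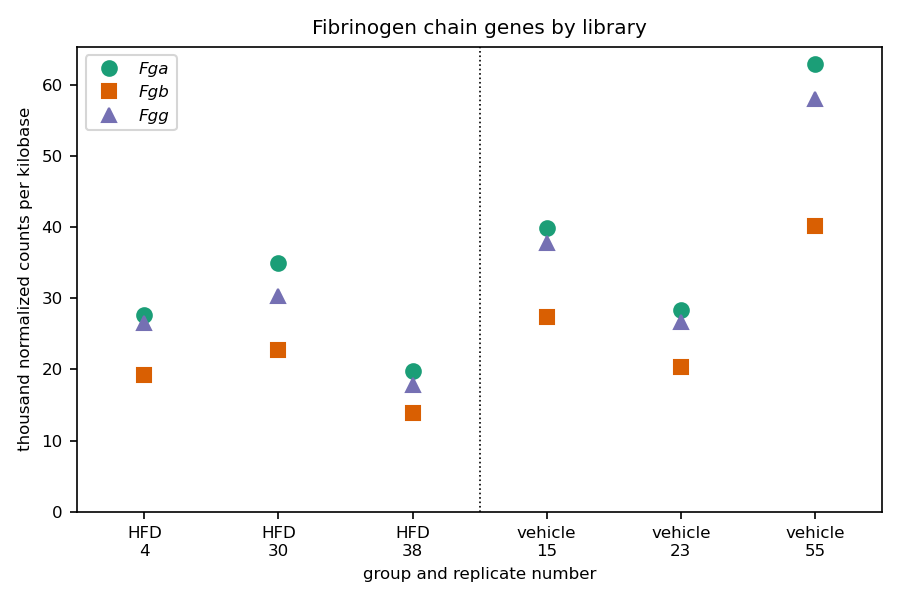
Normalized counts per kilobase of exon (vertical axis, in units of 1000) of the fibrinogen chain genes Fga, Fgb and Fgg in each of the 3 uninjected high-fat diet and 3 vehicle libraries (horizontal axis). The chains are high and low in the same libraries, with the highest points in vehicle replicate 55 and the lowest in high-fat diet replicate 38.

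The chain genes lie side by side on chromosome 3, with Fgg and Fga on the forward strand and Fgb on the reverse strand, and the promoter sequences below let their upstream bases be compared. They are followed by those of C8a, C3 and Vtn, the most often called genes with an entry in RefSeq's promoter table for GRCm38.p6, which matched 27 of the 36 genes. Each is the 150 bases before the earliest start annotated in RefSeq or GENCODE M21, read along the gene's strand. Capitals mark matches, on either strand, to TTCNNNGAA (a STAT site), CTGGGAA (the interleukin-6 type II element, which can lie within TTCNNNGAA), TTGCNNAA (C/EBP) and GTTAATNAT (HNF1).
Fga, chr3:83025926-83026075, forward strand: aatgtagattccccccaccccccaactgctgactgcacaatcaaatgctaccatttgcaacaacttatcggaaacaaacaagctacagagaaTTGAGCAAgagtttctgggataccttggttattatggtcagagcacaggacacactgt
Fgb, chr3:83049864-83050013, reverse strand: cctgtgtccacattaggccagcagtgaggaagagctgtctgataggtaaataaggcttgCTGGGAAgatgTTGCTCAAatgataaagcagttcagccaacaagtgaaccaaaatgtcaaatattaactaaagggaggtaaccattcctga
Fgg, chr3:83007574-83007723, forward strand: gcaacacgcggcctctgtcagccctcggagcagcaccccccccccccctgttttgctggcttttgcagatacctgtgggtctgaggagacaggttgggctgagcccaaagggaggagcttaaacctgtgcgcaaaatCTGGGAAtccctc
C8a, chr4:104876399-104876548, reverse strand: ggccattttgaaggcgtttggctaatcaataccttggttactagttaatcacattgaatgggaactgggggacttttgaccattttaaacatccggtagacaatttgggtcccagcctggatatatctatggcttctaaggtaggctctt
C3, chr17:57228137-57228286, reverse strand: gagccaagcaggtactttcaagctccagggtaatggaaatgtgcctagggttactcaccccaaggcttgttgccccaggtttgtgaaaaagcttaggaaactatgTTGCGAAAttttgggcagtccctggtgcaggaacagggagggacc
Vtn, chr11:78498941-78499090, forward strand: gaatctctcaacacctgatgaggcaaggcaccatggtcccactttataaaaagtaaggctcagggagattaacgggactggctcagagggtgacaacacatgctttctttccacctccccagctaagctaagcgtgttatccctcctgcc

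Fgb and Fgg each held CTGGGAA, beginning 91 and 13 bases before the end of the printed window, and Fga, Fgb and C3 each held a C/EBP match, at 58, 80 and 45 bases. The windows of C8a and Vtn held none of the 4 motifs, and no matches overlapped in the 6 windows. Over the 150 bases before the RefSeq start, CTGGGAA was in 5 of 29 promoter entries of these genes (17.2%) and in 5.5% of all 32851 entries. TTGCNNAA was in 6 (20.7%) against 5.46%, TTCNNNGAA in 3 (10.3%) against 4.09%, and GTTAATNAT in 4 (13.8%) against 0.484%. The printed windows of Fga and Vtn end 77 and 29 bases upstream of the RefSeq start. These are letter matches and no measure of binding.

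The anticoagulant and fibrinolytic genes were above the uninjected libraries in every vehicle library but were not called. Plg, the precursor of the fibrin-dissolving protease plasmin, had 29867, 33325 and 20440.3 without injection and 50504, 40759.5 and 49032 with vehicle. The ratio was 1.68, with adjusted p = 0.0686 in the authors' deposited DESeq2 table and 0.276 by edgeR. Proc, protein C, had 6469.5, 6582 and 5633 without injection and 8967, 8025 and 6790.3 with vehicle, and its cofactor Pros1, protein S, had 1818, 1834 and 1509 without injection and 2004, 1996 and 2068 with vehicle. Their ratios were 1.27 and 1.18.

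Other genes of the cascades were counted from a list of 53, of which 52 were in the complete table. The authors' deposited table called 7 of them higher with vehicle and none lower. The list's median log2 ratio was -0.01, and 25 genes lay above 0. Clu, clusterin, which blocks the membrane pore, had a ratio of 1.92. Hrg, histidine-rich glycoprotein, had 2.15, Serping1, the inhibitor of C1, had 1.92, and Cpb2, which slows fibrinolysis, had 2.12.

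Acute phase genes were higher in the same libraries. Their list was chosen with earlier results of these data known, so its counts are description only. Of 22 listed genes 21 were measured, all with a ratio above 1, and the authors' deposited table called 12 higher; the list's median log2 ratio was 1.31. Their summed level was 334149 to 359784 without injection and 652166 to 1380659 with vehicle. Orm2, an orosomucoid gene, had a ratio of 12.22, adjusted p = 3.8e-38 in the authors' deposited DESeq2 table, and Saa1, serum amyloid A, had 13.74. Summed stellate markers were 10259 to 13126 without injection and 6090 to 9883 with vehicle, endothelial markers 7488 to 8435 and 4950 to 7372, and erythroid markers 6085 to 8782 and 4518 to 5295. Of these, Lyve1, Cdh5 and Hbb-bs were called lower in the authors' deposited table. No marker of these 3 lists was at 0 in a whole group. Macrophage marker sums were 7049 to 11550 and 4936 to 7455. The part of these shifts in the values of the complement and coagulation genes was not tested.

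The high-fat diet itself went with lower levels of several of the genes. Against chow, the authors' deposited table called 8 of the 36 lower and 2 higher, where 2.05% and 2.81% of all genes tested were called and 8.92% and 5.36% of genes with a mean of at least 1000. The 2 higher genes made up 5.56% of the 36, so their count was near that last share. The lower genes were the terminal components C6, C8a and C8b, the regulator Vtn, the contact system genes Klkb1 and Kng1, F10 and Proc. The higher ones were C4b and Fgl1. When edgeR was run on the listed genes with all libraries, none of the 10 passed an adjusted p of 0.05. In that fit 6.69% of the 1226 listed genes passed as higher and 1.71% as lower. None of the 10 passed with any single library left out, where 2 to 45 of the listed genes passed as higher and 0 to 9 as lower. With all libraries, the 10 had an unadjusted p under 0.05, as did 99.8% of the listed genes, which were listed for their low deposited p. Of the 10, 6 had such a p without chow replicate 17, 5 without chow replicate 19 and 6 without high-fat diet replicate 38. Of the 1226 listed genes, 1186, 1186 and 1179 had such a p in these fits.

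C8b was furthest from chow. It had 2973, 4212 and 5394 normalized counts with chow, all above the 456 to 1830 of the high-fat diet libraries. It fell 3.68-fold, adjusted p = 0.039 in the authors' deposited DESeq2 table and 0.145 by edgeR. C6 had 2197, 3887 and 3243 with chow and 899, 1776 and 873 with the high-fat diet. The groups did not overlap, and C6 fell 2.63-fold, adjusted p = 0.000255 in the authors' deposited DESeq2 table and 0.128 by edgeR. C8a had 10593, 11726 and 12867 with chow, above all 3 high-fat diet libraries, and fell 1.80-fold.

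Klkb1 had 4489, 4291 and 4469 with chow and 2766, 3351 and 1531 with the high-fat diet, where replicate 38 was the lowest. It fell 1.73-fold, adjusted p = 0.0352 in the authors' deposited DESeq2 table. Of its exonic bases 43.2% also belong, on the same strand, to Gm45753, which had at most 1 count in the libraries of the complete table. How the shared reads were counted is not known here, so the level of Klkb1 is uncertain. The remaining falls were smaller. Vtn had 37998, 41291 and 40728 with chow and fell 1.43-fold, and Kng1 had 36121, 37243 and 42777 and fell 1.41-fold. F10 had 5744, 6292 and 6687 with chow and 4956, 5008 and 4410.2 with the high-fat diet, a 1.30-fold fall. Proc had 7647, 8281 and 8293 with chow and fell 1.30-fold. In each case the lowest chow library was above the highest high-fat diet library.

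Fgl1 and C4b went the other way. Fgl1 had 2862, 3271 and 2252 with chow, below all high-fat diet libraries, and rose 1.80-fold, adjusted p = 0.0041 in the authors' deposited DESeq2 table and 0.173 by edgeR. C4b had 28333, 26198 and 24882 with chow and rose 1.39-fold. C3 and Plg were not called, though their chow libraries all lay above the high-fat diet ones. C3 had 186156, 201024 and 177429.9 with chow, and the high-fat diet mean was 1.48-fold lower. Plg had 34406, 34819 and 34348 with chow, and the high-fat diet mean was 1.24-fold lower.

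Of the further cascade genes 7 were called higher with the high-fat diet in the authors' deposited table. Serpinc1, antithrombin, was among those called lower there, with a 1.35-fold fall. C3ar1, the receptor of C3a on myeloid cells, rose 2.71-fold from a mean of 24.6 ± 4.2. The C1q chain genes C1qa, C1qb and C1qc, which macrophages make, were among the higher ones. Other markers moved in the same libraries: 4 of 9 macrophage markers were called higher in the authors' deposited table, as were 2 of 8 stellate markers, led by Col1a1 at 8.76-fold. Of 8 hepatocyte markers 2 were called lower, Apoa1 by 1.32-fold and Serpina1c from 45006 ± 5597 to 22482 ± 10037. Among listed regulators, the liver transcription factors Hnf4a and Cebpa were called lower, 1.46-fold and 1.31-fold. The acute phase list had 11 genes called higher and 1 lower. Whether these shifts bear on the complement and coagulation genes was not tested.

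Between PCN and its vehicle C2 rose and C9 fell. The authors' deposited table called 1 of the 36 higher and 1 lower, 2.78% in each direction, where 1.07% and 0.641% of all genes tested were called and 4.99% and 2.36% of genes with a mean of at least 1000, so the counts were near that background. By edgeR on the listed genes neither was called, while 2.94% of the 442 listed genes were called higher and 0.452% lower. Both had an unadjusted p under 0.05, as did 100% of the listed genes. C2 had 1003, 756 and 830.1 with PCN, all above the vehicle libraries. It rose 1.85-fold from 466 ± 62.9 to 863 ± 127, adjusted p = 0.00184 in the authors' deposited DESeq2 table and 0.154 by edgeR. C9, the pore-forming unit of the terminal complex, had 8527, 7205 and 7115 with vehicle and 4719, 3414 and 2747 with PCN. The groups did not overlap, and C9 fell 2.10-fold, adjusted p = 0.000576 in the authors' deposited DESeq2 table and 0.199 by edgeR.

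The other 11 genes with counts in all 4 groups were not called between PCN and vehicle. Their ratios ran from 0.58 for C6 to 1.34 for Masp1. Masp1 had 3233, 3202 and 3156 with vehicle and 4215, 4912 and 3759.9 with PCN, so that every PCN library was above the vehicle ones. C4b had 46387, 39763 and 47794 with PCN, every library below the vehicle ones, a ratio of 0.70. C8a, C8b, Klkb1, Kng1 and F10 had ratios between 0.90 and 1.04 and overlapping groups. Of the further cascade genes, Cfd, factor D of the alternative pathway, was called lower in the authors' deposited table, with 131 ± 73.3 with vehicle and 3.9 ± 2.9 with PCN, a level of a few counts. Of the acute phase list 4 genes were called lower and none higher, and the regulator Cebpb fell 1.66-fold, both in the authors' deposited table; their part in the values above was not tested.

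**Figure D3:**
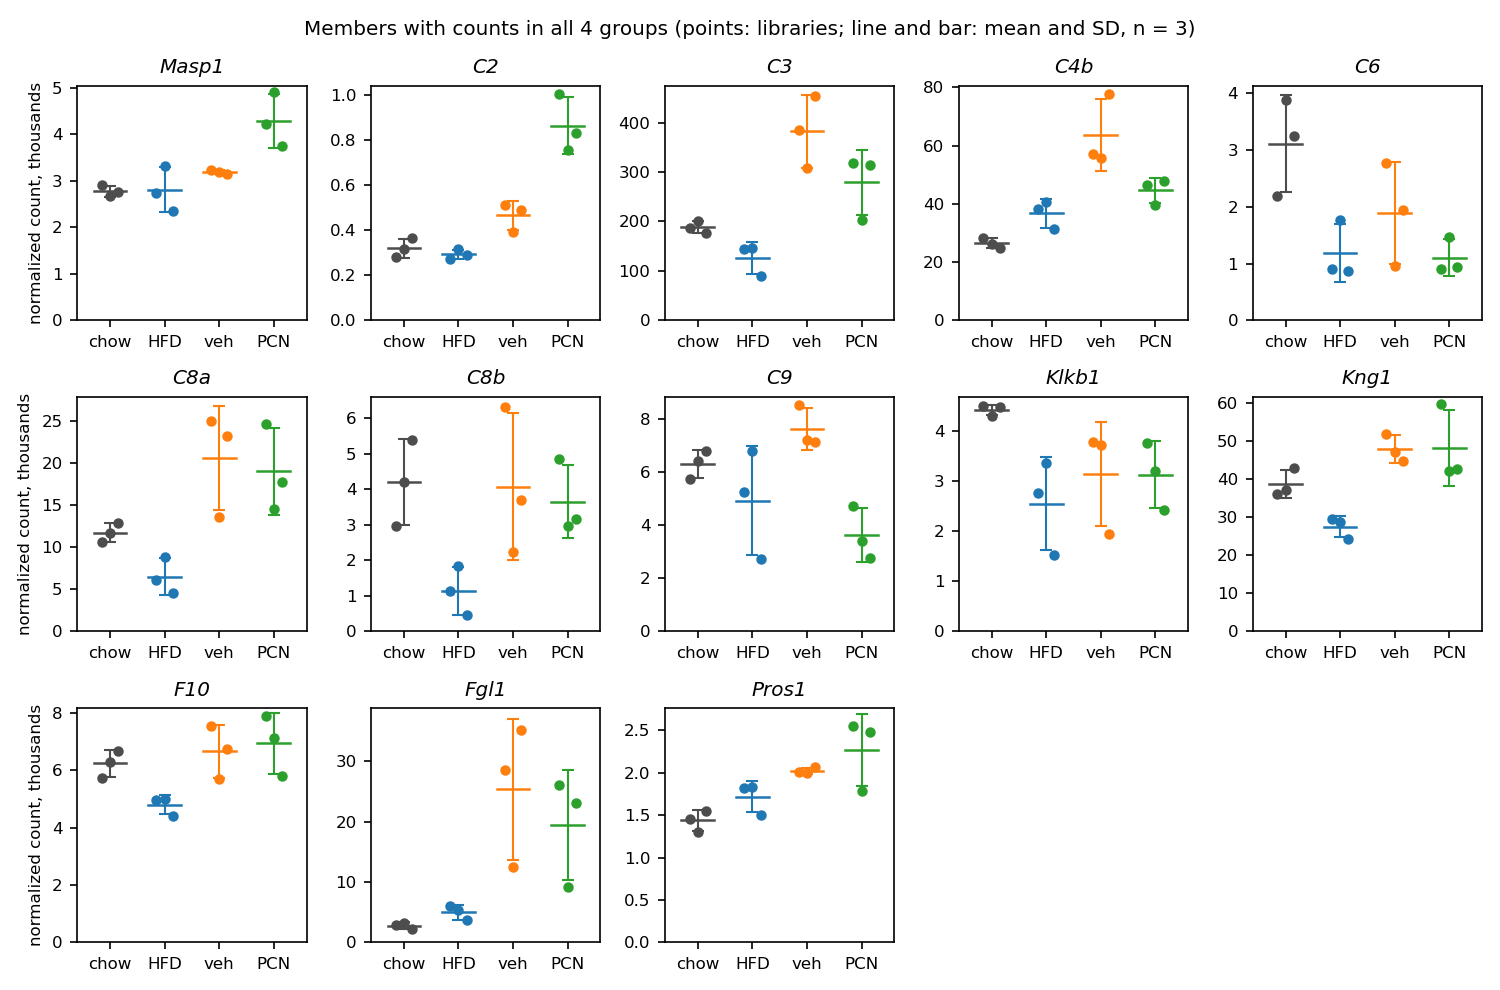
Normalized counts (vertical axes, in units of 1000, from 0) of the 13 genes with counts in all 4 groups; each point is a library, and the line and bar are the mean and SD of 3 libraries in chow, uninjected high-fat diet (HFD), vehicle (veh) and PCN. C2 is highest with PCN, C6 and C8b are lower with the uninjected high-fat diet than with chow, and Fgl1 is highest in the injected groups. The mean of C9 is lowest with PCN, but its PCN and uninjected high-fat diet points overlap.

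Set against uninjected mice on the same diet, the PCN group had higher levels of several of the genes. The authors' deposited table called 8 of the 36 higher and none lower, where 1.9% and 1.25% of all genes tested were called and 8.58% and 3.94% of genes with a mean of at least 1000. These were C2, C3, C8a, C8b, Kng1, F10, Masp1 and Fgl1. The comparison shares its uninjected libraries with the vehicle comparison, so the ratios are set side by side and not counted as agreement. C3 was at 2.20-fold of the uninjected mean with PCN and 3.01-fold with vehicle. C8a was at 2.92-fold and 3.17-fold, C8b at 3.21-fold and 3.58-fold, and Kng1 at 1.75-fold and 1.74-fold. Fgl1 was at 3.87-fold and 5.06-fold, F10 at 1.45-fold and 1.39-fold, and C2 at 2.95-fold and 1.59-fold. With vehicle, C8b, F10, C2 and Masp1 were not called in the authors' deposited table, and none of the genes was called by edgeR's quasi-likelihood test.

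In the PCN libraries C3 had 318294, 203370.4 and 314941, C8a had 24649, 14581 and 17786 and C8b had 4843, 2969 and 3154. Replicate 11, which had the smallest size factor of its group, was the lowest PCN library for these 3 genes, and all values were above the uninjected ones. Fgl1 had 26142, 9107 and 23149, with the same library lowest. Kng1 had 59764, 42110.0 and 42644 and F10 had 7889, 7113 and 5797, again above every uninjected library. The adjusted p in the authors' deposited DESeq2 table was 2.19e-15 for C2, 2.27e-06 for C8a, 1.8e-06 for Fgl1 and 0.0326 for Masp1. By edgeR on the listed genes C2 alone of the 8 passed, with an adjusted p of 0.0102, and 10.8% of the 809 listed genes passed as higher and 6.3% as lower. The count of the 8 genes that passed was 0 without high-fat diet replicate 4 or PCN replicate 27. In each of those fits 0 of the 809 listed genes passed in either direction. The count was 2 without PCN replicate 11, where 120 of the listed genes passed as higher and 57 as lower. Of the further cascade genes 5 were called higher and 1 lower; the lower one was Cfd, and the lowest adjusted p among the higher ones was that of Clu, at 1.91-fold.

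Against chow, the vehicle group had higher levels of several of the genes, most of all Fgl1. Between vehicle and chow the authors' deposited table called 10 of the 36 higher and none lower, where 1.72% and 1.38% of all genes tested were called and 5.06% and 5.7% of genes with a mean of at least 1000. They were Fgl1, C4b, C3, Hc, Cfb, C8a, Cfi, Vtn, Pros1 and Plg. Fgl1 was at 2795 ± 513 with chow and 25430.0 ± 11691 with vehicle, 9.10-fold, adjusted p = 8.51e-22 in the authors' deposited DESeq2 table and 0.035 by edgeR. It was the 1 gene of the 10 that edgeR called, where 6.58% of the 790 listed genes were called higher and 5.06% lower. None of the 10 was called without any 1 of the chow libraries, vehicle replicate 15 or vehicle replicate 55. Of all 790 listed genes, 0 were called without chow replicate 8 or 17. Without chow replicate 19, 1 was called higher and 1 lower. The counts were 9 higher and 6 lower without vehicle replicate 15, and 6 and 3 without vehicle replicate 55. C4b rose 2.40-fold, C3 2.03-fold, Hc 1.79-fold from 19682, 20870.3 and 21437, and C8a 1.76-fold.

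Cfb had 169, 182 and 180.4 with chow and rose 1.77-fold with vehicle, adjusted p = 0.00584 in the authors' deposited DESeq2 table. Cfi had 10109, 9954 and 9825 with chow and 13994, 13882 and 12779 with vehicle, a 1.36-fold rise without overlap. Pros1 had 1460.3, 1301 and 1553 with chow and rose 1.41-fold, Vtn rose 1.44-fold and Plg 1.35-fold. Several genes that fell between chow and the uninjected high-fat diet were not called here: C8b had a ratio of 0.97 between vehicle and chow, F10 1.07 and Proc 0.98, with overlapping groups, and C6 0.61 and Klkb1 0.71. The falls from chow and the rises of the injected groups over the uninjected diet rest on the same uninjected libraries, so they are not independent. Replicate 38 of that group was the lowest of the complete libraries for 32 of the 36 genes. Of the acute phase list 17 genes were called higher in the authors' deposited table and none lower, and their part in these values was not tested.

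Between PCN and chow the authors' deposited table called 7 of the 36 higher and 3 lower, where 4.43% and 3.67% of all genes tested were called. Among genes with a mean of at least 1000 the shares were 11.2% and 15.7%, so the count of lower genes was no larger than that background. The higher genes were Fgl1 (6.97-fold), C2 (2.69-fold), C4b (1.69-fold), C8a (1.62-fold), Pros1 (1.58-fold), Masp1 (1.55-fold) and C3 (1.48-fold). C2 had 281, 317 and 365 with chow, below every PCN library, and Masp1 had 2904, 2679.6 and 2751. Pros1 had 2547, 1781 and 2483 with PCN, all above chow.

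The lower genes were C6, C9 and Klkb1. C6 had 900.4, 1473 and 939.5 with PCN, all below the chow libraries, and fell 2.81-fold, adjusted p = 2.47e-08 in the authors' deposited DESeq2 table and 0.0289 by edgeR. C9 had 5748, 6409 and 6777 with chow and fell 1.74-fold. Klkb1 had 3755, 3203 and 2429.8 with PCN and fell 1.41-fold. By edgeR on the listed genes Fgl1 and C2 passed in the higher direction, with adjusted p-values of 0.0138 and 0.0077, and C6 in the lower, where 24.2% and 13.9% of the 2032 listed genes passed. The count of higher genes was 1 without any 1 of the chow libraries or PCN replicate 5 or 27, and 3 without PCN replicate 11. Of the 2032 listed genes, 91 to 146 passed as higher in the former fits and 497 in the latter. The count of lower genes was 0 without chow replicate 17 or 19 or PCN replicate 5 or 27, where 38 to 62 of the listed genes passed as lower. Hepatocyte markers shifted in this comparison too: 6 of 8 were called lower in the authors' deposited table, among them Alb, albumin, at 2.15-fold and Tat at 2.55-fold. Their part in the falls of C6, C9 and Klkb1 was not tested.

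**Figure D4:**
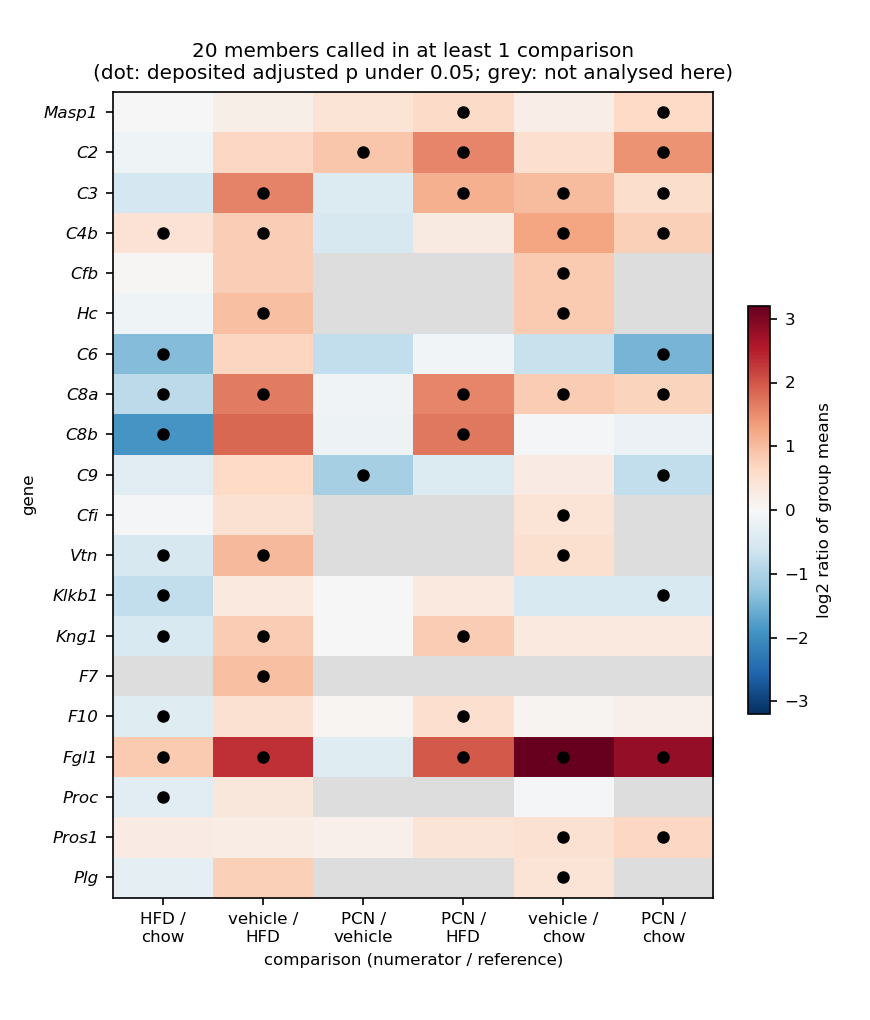
Log2 ratios of group means (colour) for the 20 genes called in at least 1 of the 6 comparisons (vertical axis), by comparison (horizontal axis); a dot marks a deposited adjusted p under 0.05 and grey a value not analysed here. The comparison of the high-fat diet with chow holds 8 of the 12 blue dotted cells, Fgl1 is dotted in 5 of the 6 comparisons, and C2 and C9 are the dotted genes between PCN and vehicle.

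Over the 6 comparisons 20 of the 36 genes were called at least once in the authors' deposited tables, in 48 pairs of gene and comparison, and 16 were called in none. Fgl1 and C8a were called in 5 comparisons each, and C3 and C4b in 4. The genes called in none were the C1 proteases, both mannose-binding lectins, Masp2, C8g, C4bp, F11, F12, prothrombin, factor IX, F5, F13b and the 3 fibrinogen chains. For these, chow and PCN counts were not analysed here.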

How the data were processed

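Liver RNA of 12 libraries was analysed from 6 pairwise tables. The tools named in the submitters' processing notes are HISAT2, HTSeq and DESeq2, with the build GRCm38 (mm10); versions and strand settings are not given in the sources used here. Per the file headers, the authors deposited raw counts per gene and, from DESeq2, a mean of normalized counts, a log2 fold change with its standard error, a p-value and an adjusted p-value. The complete table held 26015 genes; the other 5 listed only genes with an adjusted p under 0.05. Size factors were recovered from the counts and deposited means and put on 1 scale (largest difference 0.682%).

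The 36 genes and the marker, acute phase, regulator and further pathway lists were chosen with earlier results of these data known. The complete table was tested with edgeR 4.0.16 (quasi-likelihood, TMM, expression filter, 13775 genes, two-sided, Benjamini-Hochberg adjustment, call at 0.05). In the other 5 comparisons the calls are the authors' deposited DESeq2 calls, since a fit over all genes cannot be made from called genes; the listed genes were tested with edgeR, with the dispersion trend of the complete table and adjustment over the recovered number of genes tested. Alternatives were DESeq2 1.42.0, DESeq2 size factors, no filter, library totals, group medians and leaving out each library. Library values are given for every called gene and, in the vehicle comparison, for the 5 genes with the lowest edgeR p in each direction, of which 2 were lower. With 3 libraries a group, an exact permutation test cannot give p below 0.10. Depths are given with the data; counting error of a gene is larger in high-fat diet replicate 38, the shallowest library. Gene starts were raised by 1 and then matched GENCODE M21 for 32 of the 36 genes. Some values are not reported here.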

Additional observations from a re-analysis of the deposited data

How the results depend on the processing

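The number of genes called depended on the test. Between vehicle and the uninjected high-fat diet edgeR called 0 of the 36 genes; the authors' deposited table held 8 calls, a DESeq2 refit gave 10, edgeR without an expression filter 6 (0.373% of all genes tested) and edgeR with DESeq2 size factors 0, all of them higher and none lower. Leaving out 1 library in turn gave 0 to 1 by edgeR and, as an alternative added after seeing the data, 6 to 12 by DESeq2. Among all genes tested, the edgeR fits called 0 to 6 higher and 0 to 3 lower. The DESeq2 fits called 33 to 170 higher and 59 to 275 lower. In the other comparisons, edgeR on the listed genes against the authors' deposited calls gave 0 higher and 0 lower against 2 and 8 for the high-fat diet and chow (0 to 0 in each direction with 1 library left out), and 0 and 0 against 1 and 1 for PCN and vehicle (0 to 0). It gave 1 higher against 8 for PCN and the uninjected diet (0 to 2), 1 against 10 for vehicle and chow (0 to 1), and 2 higher and 1 lower against 7 and 3 for PCN and chow (1 to 3 higher, 0 to 1 lower). With 1 library left out, 2 to 45 of all listed genes were called higher and 0 to 9 lower for the high-fat diet and chow. Between PCN and vehicle these numbers were 0 to 21 and 0 to 2. Between PCN and the uninjected diet they were 0 to 120 and 0 to 57. For vehicle and chow they were 0 to 33 and 0 to 13. For PCN and chow they were 91 to 497 and 38 to 219. The cause of the difference between the tests was not tested. The 48 ratios of called genes kept their direction in all 344 alternatives, 342 of which moved them by less than 1 SD between replicates; none moved by over 1.5 times with a library left out. With library totals the median log2 ratio of genes with a mean of at least 1000 turned from 0.03 to -0.11, and that of the 36 genes was 0.37. With 1 library left out the latter was 0.39 to 0.68. No paired analysis was possible because the groups share no replicate numbers. Depth limits Cfb, C2 and F11 most, the 3 genes with a mean under 1000 normalized counts.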
